A study of Mus musculus with 6 samples.

Results

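Neutrophil granule genes were followed in bone marrow-derived macrophages (BMMs) given rGDF11. They are 9 genes taken by name, *Ngp*, *Camp*, *Ltf*, *Lcn2*, *Mpo*, *Elane*, *Prtn3*, *S100a8* and *S100a9*, out of 19938 genes that had a probe set of their own on the arrays. A gene was read from the probe set that the platform annotation pairs with its symbol alone, and each of the 9 had exactly 1 such probe set. The treated group was 3 cultures kept for 24 h with 100 ng/ml rGDF11 on top of RANKL (50 ng/ml) and M-CSF (100 ng/ml). The vehicle group was 3 cultures kept for the same time with M-CSF and RANKL at the same doses and no rGDF11. All 6 cultures thus had RANKL, the signal that turns macrophages into osteoclasts, and cells without RANKL were not analysed here. No genetic change is named for either group. The cells came from tibial marrow of 9-week-old mice by the labels, where the study's methods give 6 to 9 weeks. The study's mice were female C57BL. The samples are called biological replicates, but no source used here says whether each had its own mouse, and a p-value then reflects only how these samples vary.

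Neutrophils store antimicrobial proteins in granules that are filled in turn as the cell matures. Primary, or azurophil, granules are filled first, in promyelocytes, with myeloperoxidase and serine proteases. Secondary, or specific, granules are filled next, in myelocytes, with lactoferrin, cathelicidins and lipocalin 2, while the S100A8 and S100A9 proteins fill the cytosol. Macrophages grow from the same marrow progenitors. Some of these genes, *Lcn2* and *S100a8* among them, can also be induced in macrophages by inflammatory signals, whereas the primary granule genes are largely silent once a cell has become a macrophage.

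Expression was read on Affymetrix Mouse Gene 1.0 ST arrays, 1 per culture, and the values are log2 values that the authors normalized by the robust multichip average (RMA). Every array had a median of 6.11 to 6.18, so the arrays were on a common scale, but a value of one gene is not comparable with that of another because their probes differ. The table holds no detection calls, so a low value cannot be read as presence or absence. Differences between the groups were tested in limma over 23410 probe sets, and p-values were adjusted by the Benjamini-Hochberg method. The words rose and fell are kept for genes with an adjusted p under 0.05. Among 9 macrophage markers, *Csf1r*, the M-CSF receptor, read 12.04 ± 0.02 with rGDF11 and 12.12 ± 0.06 with RANKL alone (SD, n = 3 each), and *Lyz2*, lysozyme, 13.03 with rGDF11 and 13.05 with RANKL alone. Of the 9, 6 fell with rGDF11, among them *Mrc1*, the mannose receptor, at 6.20, 6.03 and 5.66 with rGDF11, against 9.19, 9.22 and 8.94 with RANKL alone.

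*Ngp*, *Lcn2* and *S100a8* rose with rGDF11, and none of the other 6 granule genes passed the test. These 3 of 9 genes stand against 7.49% of all genes that rose, 9.13% that fell and 16.6% that did either. The 9 were chosen with earlier results of these data known, so the shares are given for description and are no test of the set. No member fell, and at an unadjusted p under 0.05 limma gave 5 members higher and 0 lower. The share of all genes at that unadjusted cut was not counted, so this count has no background beside it. The same 3 genes passed the study's own threshold, a fold change of 1.5 with an unadjusted p under 0.01, which 2.13% of all genes passed upward and 3.06% downward. The median log2 fold change of the 9 was 0.25, against 0.03 over all genes. The groups did not overlap for 6 members, all higher with rGDF11, where 16.7% of all genes were higher without overlap and 33.7% did not overlap in either direction. With 3 arrays a group, the exact permutation test cannot give a two-sided p under 0.1, which is the value it gave for each of those 6 members.

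*Ngp*, which encodes neutrophilic granule protein, a relative of the cathelicidins kept in secondary granules, had the largest change of the 9. It read 9.37, 9.40 and 9.08 on the arrays with rGDF11, against 8.05, 8.29 and 8.51 on those with RANKL alone. The lowest culture with rGDF11 was thus above the highest one without it, although the vehicle cultures spread more widely than for any other member. The log2 fold change was 1.0 with a standard error of 0.13, or 2.0-fold higher (95% interval 1.62 to 2.49; limma, adjusted p = 0.00181).

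*Lcn2* encodes lipocalin 2, which binds the iron carriers of bacteria. It read 8.66, 8.87 and 8.74 with rGDF11, against 7.92, 8.0 and 8.16 with RANKL alone. The cultures lay close together within each group and the groups were well apart. The rise was 1.66-fold (log2 fold change 0.73, standard error 0.09; limma, adjusted p = 0.00108).

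*S100a8*, a small calcium-binding protein gene, read 7.02, 7.36 and 6.98 with rGDF11, against 6.40, 6.39 and 6.43 with RANKL alone. The vehicle cultures were nearly equal, and the second culture with rGDF11 stood above the other two. The rise was 1.64-fold (log2 fold change 0.71, standard error 0.10; limma, adjusted p = 0.00286). The 95% intervals of the 3 rising genes overlapped, running from 0.69 to 1.31 for *Ngp*, 0.53 to 0.93 for *Lcn2* and 0.47 to 0.96 for *S100a8* on the log2 scale, so their order by size of change is not fixed by these arrays.

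**Figure D1:**
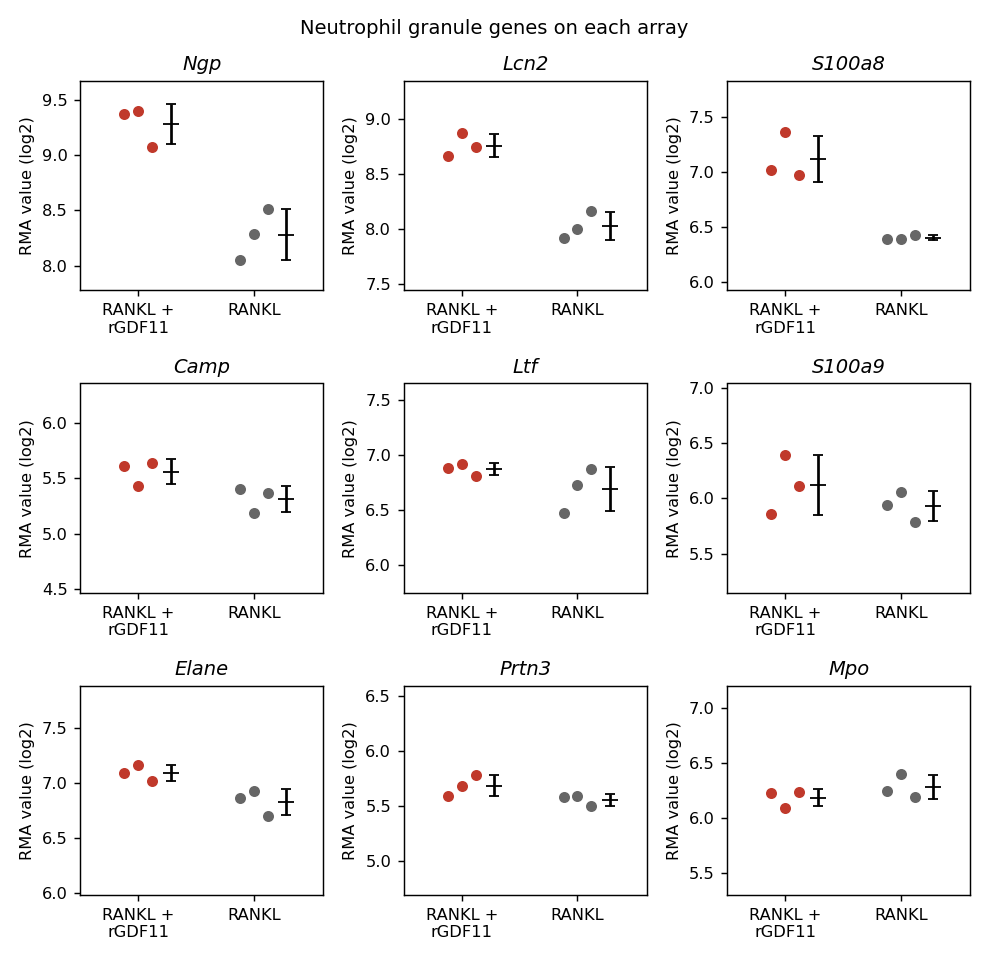
RMA values (log2, vertical axes, all spanning the same range) of the 9 neutrophil granule genes in BMMs given RANKL with rGDF11 (red) or RANKL alone (grey). Each point is an array, and the bar beside the 3 points of a group gives their mean with its SD; *Ngp*, *Lcn2* and *S100a8* in the top row are well apart, with *Ngp* at 9.08 to 9.40 with rGDF11 against 8.05 to 8.51 with RANKL alone, while the groups overlap for *Ltf*, *S100a9* and *Mpo*.

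*S100a9* encodes the partner with which S100A8 forms the heterodimer calprotectin, and the genes are direct neighbours on chromosome 3. It read 5.86, 6.40 and 6.11 with rGDF11, against 5.94, 6.06 and 5.79 with RANKL alone. The groups overlapped, since the first culture with rGDF11 was below 2 of the vehicle cultures, and the change did not pass (log2 fold change 0.19, standard error 0.14; limma, adjusted p = 0.439). Its 95% interval, −0.13 to 0.51, holds both no change and a rise of 1.43-fold. On each array the *S100a8* value minus the *S100a9* value was taken, which removes any shift of equal size in both probe sets. RMA can compress the changes of dim probe sets, and whether it did so unequally in this or the later pairs was not tested. The difference of *S100a8* and *S100a9* was 1.17, 0.97 and 0.87 with rGDF11, against 0.46, 0.33 and 0.65 with RANKL alone. The log2 fold change of *S100a8* thus exceeded that of *S100a9* by 0.52 with a standard error of 0.13, without overlap between the groups (exact permutation test, two-sided p = 0.1).

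The secondary granule list held *Camp* and *Ltf* beside *Ngp* and *Lcn2*. *Camp*, the gene of the cathelicidin peptide CRAMP, read 5.61, 5.43 and 5.64 with rGDF11, against 5.40, 5.18 and 5.37 with RANKL alone. The groups were separated by only a narrow gap, and the change did not pass (log2 fold change 0.25, standard error 0.09; limma, adjusted p = 0.112). *Ltf*, the iron-binding protein lactoferrin, read 6.88, 6.92 and 6.81 with rGDF11, against 6.48, 6.73 and 6.87 with RANKL alone. The third vehicle culture lay above the lowest culture with rGDF11, and the log2 fold change was 0.18 (standard error 0.10, adjusted p = 0.318 from limma). *Ngp* and *Camp* encode related proteins and lie on the same chromosome, 9, with other genes between them. The log2 fold change of *Ngp* exceeded that of *Camp* by 0.76 with a standard error of 0.22, and the differences between the genes did not overlap between the groups (exact permutation test, two-sided p = 0.1).

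None of the 3 primary granule genes passed the test, and their log2 fold changes ran from −0.10 to 0.26. *Elane*, neutrophil elastase, came nearest. It read 7.09, 7.16 and 7.02 with rGDF11, against 6.86, 6.92 and 6.70 with RANKL alone, groups that did not overlap, at a log2 fold change of 0.26 (standard error 0.08; limma, adjusted p = 0.0650). *Prtn3*, proteinase 3, the gene next to *Elane* on chromosome 10, read 5.59, 5.69 and 5.78 with rGDF11, against 5.58, 5.59 and 5.50 with RANKL alone. The lowest culture with rGDF11 and the highest without it were almost level, and the log2 fold change was 0.13 (adjusted p = 0.299 from limma). The change of *Elane* exceeded that of *Prtn3* by 0.13 with a standard error of 0.09, and this difference overlapped between the groups (exact permutation test, two-sided p = 0.3). *Mpo*, myeloperoxidase, which makes hypochlorous acid from hydrogen peroxide, was the only member with a mean below that of the vehicle cultures. It read 6.23, 6.10 and 6.23 with rGDF11, against 6.25, 6.41 and 6.20 with RANKL alone, at a log2 fold change of −0.10 with a 95% interval of −0.28 to 0.09 (limma, adjusted p = 0.498). A fall of *Mpo* below 0.82-fold and a rise above 1.06-fold lie outside that interval.

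**Figure D2:**
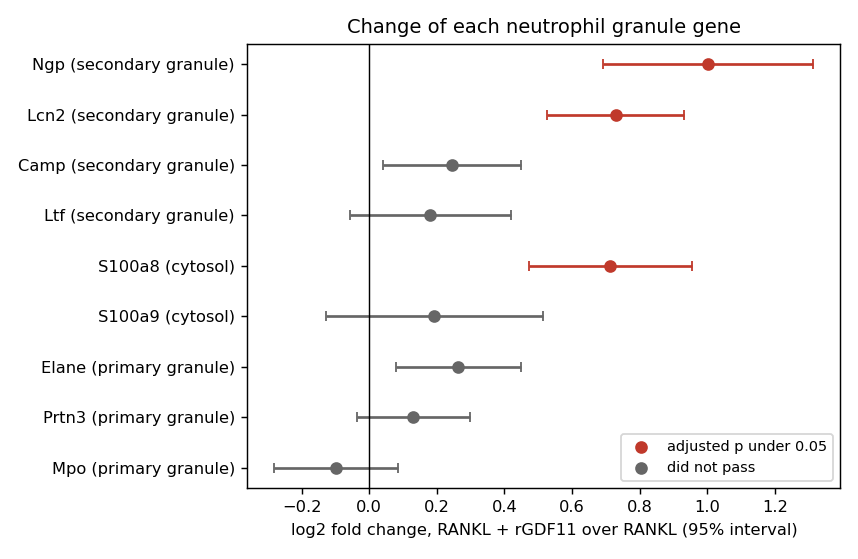
Log2 fold change (RANKL with rGDF11 over RANKL, horizontal axis) of each neutrophil granule gene, grouped by where its protein is stored, with 95% intervals from limma over 3 arrays per group that are not adjusted for the number of genes. Red marks an adjusted p under 0.05; *Ngp* lies at 1.0, *Lcn2* at 0.73 and *S100a8* at 0.71, and the other 6 lie between −0.10 and 0.26.

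Within a group the members did not follow 1 order of cultures. Among the cultures with rGDF11 replicate 2 gave the highest value for 6 of 9 members, *Ngp*, *Ltf*, *Lcn2*, *Elane*, *S100a8* and *S100a9*, and replicate 3 for *Camp*, *Mpo* and *Prtn3*. Among the vehicle cultures replicate 3 was highest for *Ngp*, *Ltf*, *Lcn2* and *S100a8*, replicate 2 for *Mpo*, *Elane*, *Prtn3* and *S100a9*, and replicate 1 for *Camp*. When each of the 6 arrays was left out in turn, 3 members rose every time and 0 fell, and *Ngp*, *Lcn2* and *S100a8* passed in all 14 alternative fits of each.

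The stretches just before the start sites of the 3 rising genes, and of *S100a9* beside *S100a8*, are shown so that the 3 rising genes can be read beside the neighbour of *S100a8* that did not pass. They are the 250 bases before the start as given by RefSeq, 5′ to 3′ on the gene's own strand, in build GRCm38.p6, and all 9 members had an entry. Capitals mark matches on either strand to TTGCNNAA, a form of the site of C/EBP factors, which drive granule genes in neutrophil precursors, or to GAGGAA, the core of the site of PU.1, a factor of both neutrophils and macrophages.
Ngp (chr9:110419558-110419807, plus strand): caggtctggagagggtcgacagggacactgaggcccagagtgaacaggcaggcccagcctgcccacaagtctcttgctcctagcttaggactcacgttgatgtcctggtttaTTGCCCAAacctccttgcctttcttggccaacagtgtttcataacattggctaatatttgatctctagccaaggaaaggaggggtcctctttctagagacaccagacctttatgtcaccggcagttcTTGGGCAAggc
Lcn2 (chr2:32387740-32387989, minus strand): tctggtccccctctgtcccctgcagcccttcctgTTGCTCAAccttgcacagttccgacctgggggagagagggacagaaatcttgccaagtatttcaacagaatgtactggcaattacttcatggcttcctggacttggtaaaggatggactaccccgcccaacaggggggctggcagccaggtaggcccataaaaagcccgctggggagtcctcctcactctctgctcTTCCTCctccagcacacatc
S100a8 (chr3:90668821-90669070, plus strand): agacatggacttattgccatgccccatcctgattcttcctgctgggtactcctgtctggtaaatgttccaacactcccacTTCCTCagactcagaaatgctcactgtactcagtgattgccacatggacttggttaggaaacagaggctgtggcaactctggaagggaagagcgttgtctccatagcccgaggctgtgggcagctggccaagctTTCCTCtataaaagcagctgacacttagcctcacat
S100a9 (chr3:90695722-90695971, minus strand): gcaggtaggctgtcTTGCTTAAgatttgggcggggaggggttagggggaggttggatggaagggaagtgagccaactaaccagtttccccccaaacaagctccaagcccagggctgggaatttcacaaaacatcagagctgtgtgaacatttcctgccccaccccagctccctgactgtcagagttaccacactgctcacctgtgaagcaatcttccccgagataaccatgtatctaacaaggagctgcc

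The stretch before *Ngp* held 2 C/EBP matches, with first bases 138 and 11 bases before the start, and no PU.1 match. That of *Lcn2* held 1 C/EBP match 216 bases before the start and 1 PU.1 match at 20. That of *S100a8* held no C/EBP match and 2 PU.1 matches, at 170 and 36, and that of *S100a9* 1 C/EBP match at 236. Of the 9 members 4 held a C/EBP match, the fourth being *Ltf*, against 9.56% of 32851 stretches of the same length, and 6 held a PU.1 match, against 23.3%. CAGAC, a short Smad site, was found in 4 members, *Ngp*, *Camp*, *Elane* and *S100a8*, against 42.2%, and overlapped a PU.1 match in *S100a8*. TGANTCA, an AP-1 site, was found in 0 of 9, against 6.75%. The genes that rose and those that did not pass each included stretches with and without a C/EBP match. A match is only a run of letters, and binding was not measured on these arrays.

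Other genes of neutrophil granules showed no shared direction. Of 11 genes of the primary granule list, which holds *Mpo*, *Elane* and *Prtn3*, 0 rose and 1, *Gusb*, a lysosomal glucuronidase, fell with a log2 fold change of −0.25, and the list's median was 0.02. *Gusb* did not pass when any 1 array was left out. *Ctsg*, cathepsin G, which is stored with elastase, read 5.53 with rGDF11 and 5.91 with RANKL alone (log2 fold change −0.37; limma, adjusted p = 0.0545), opposite in sign to *Elane*. Of 15 genes of the secondary granule list, *Ngp* and *Lcn2* rose, 2 fell and 11 did not pass, at a median of 0.04. The falling ones were *Mmp8*, neutrophil collagenase, at 4.62 ± 0.03 with rGDF11 and 5.30 ± 0.21 with RANKL alone (SD, n = 3 each; log2 fold change −0.68, limma, adjusted p = 0.00364), and *Cybb*, the oxidase subunit that macrophages express as well, at −0.51. Of the 19 genes on these lists that are not members, limma gave 0 higher and 3 lower. At an unadjusted p under 0.05 it gave 2 higher and 5 lower, again without a count over all genes. Of 9 measured genes of gelatinase granules and secretory vesicles, *Alpl*, alkaline phosphatase (0.44), and *Arg1*, arginase 1 (0.45), rose, and *Mmp9*, gelatinase B (−0.62), and *Itgam*, an integrin subunit (−0.24), fell, at a median of 0.06. Without vehicle replicate 1, 3 of these genes rose, and without any other 1 array 1 rose. The count that fell was 1 with any array left out.

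Among 15 genes of the S100 family list, which also holds the binding protein gene *S100pbp*, *S100a8* alone rose, and 2 rose without rGDF11 replicate 2. *S100a6*, which is expressed widely, fell (log2 fold change −0.61; limma, adjusted p = 0.000894), and the other 13, *S100a4*, *S100a10* and *S100a11* included, did not pass. Among the alternative fits described below, 4 fell with the filter on dim probe sets and with either other eBayes setting. By the methods' t-test 3 fell. The count that rose was also 2 after another quantile normalization and with the replicate number as a block. The median of the list was −0.04. Of 14 measured genes whose proteins receive, hold in check or work with the granule proteins, 6 fell, and 0 rose at either an adjusted or an unadjusted p under 0.05. Their median was −0.21. The count that fell was 6 without vehicle replicate 3 or rGDF11 replicate 2, and 5 without any other 1 array. Among the other fits described below, it was 5 over all rows and by the methods' t-test. It was 7 after centring on array medians and with either other eBayes setting. For S100A8 and S100A9 the receptor is TLR4, and *Tlr4* fell with a log2 fold change of −0.88 (adjusted p = 0.000796 from limma), as did its co-receptor *Cd14* (−1.06), while *Ager*, which encodes the other receptor RAGE, read 6.29 with rGDF11 and 6.22 with RANKL alone (0.07, adjusted p = 0.773). *Slc22a17*, a receptor of lipocalin 2, read 6.12 with rGDF11 and 6.0 with RANKL alone (0.12, adjusted p = 0.572). *Serpinb1a*, an inhibitor of elastase and proteinase 3, fell (log2 fold change −1.03; limma, adjusted p = 0.0256), as did *Serpinb6a* (−1.07), the scavenger receptor *Cd36* (−2.65) and *Itgb2*, the partner chain of *Itgam* (−0.33). The cultures varied widely for *Serpinb1a*, at 4.45, 5.21 and 4.38 with rGDF11, against 5.80, 6.01 and 5.35 with RANKL alone. Of 7 measured NADPH oxidase genes, whose product supplies myeloperoxidase with hydrogen peroxide, *Cybb* (−0.51), *Ncf1* (−0.47) and *Rac2* (−0.50) fell and the proton channel gene *Hvcn1* (0.48) rose, at a median of −0.20.

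**Figure D3:**
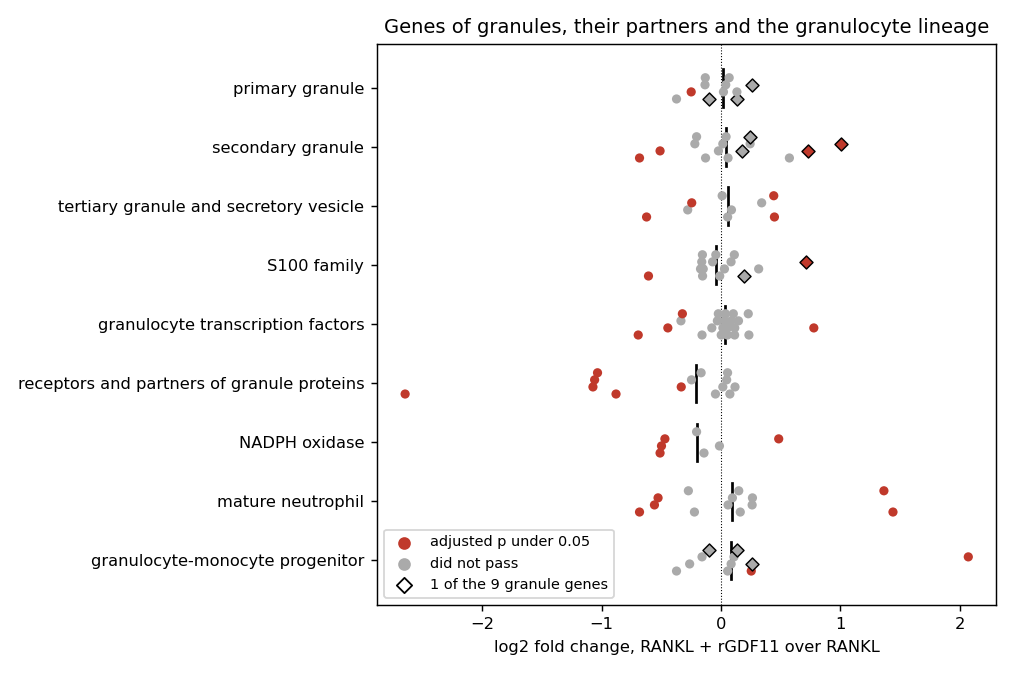
Log2 fold change (horizontal axis, RANKL with rGDF11 over RANKL) for measured genes of 7 lists of granule genes, their partners and regulators and of 2 marker lists. A point is a gene, fitted on 3 arrays in each group. Diamonds are the neutrophil granule genes, red marks genes with an adjusted p under 0.05 and vertical lines are medians; *Ngp* and *Lcn2* lie to the right of all other secondary granule genes, and the median of the receptors and partners is −0.21.

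Most genes on the list of granulocyte transcription factors did not pass, and over all genes 16.6% rose or fell. Of 22 genes, *Id2* (log2 fold change 0.78), an inhibitor of E proteins, rose, *Klf4* (−0.69), *Gfi1b* (−0.44) and *Stat3* (−0.32) fell, and 18 did not pass, at a median of 0.03. Without rGDF11 replicate 2, 2 rose. *Cebpe*, the factor needed for secondary granule genes, read 6.40, 6.21 and 6.50 with rGDF11, against 6.70, 6.41 and 6.48 with RANKL alone (−0.16; limma, adjusted p = 0.389). The groups overlapped, and the mean lay on the other side from that of *Ngp* and *Lcn2*. *Gfi1*, its partner in granulocyte formation, had a log2 fold change of 0.09 (adjusted p = 0.562), *Cebpa* of 0.23 (adjusted p = 0.185), *Cebpb* of −0.08 (adjusted p = 0.606) and *Cebpd* of −0.34 (adjusted p = 0.0549).

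Marker genes were read to see which other cells could contribute to these values, since on bulk arrays more cells of a type and more RNA per cell cannot be told apart. Of 13 measured markers of mature neutrophils, 2 rose, 3 fell and 8 did not pass, with a median of 0.10, and the mean of the list lay between 5.23 and 5.33 with rGDF11 and between 5.14 and 5.19 with RANKL alone. *Ly6g*, the defining surface protein of mouse neutrophils, read 4.36, 4.32 and 4.77 with rGDF11, against 4.97, 4.55 and 4.60 with RANKL alone (log2 fold change −0.22; limma, adjusted p = 0.411). *Csf3r*, the G-CSF receptor, differed by −0.27 on the log2 scale (adjusted p = 0.0696 from limma). The neutrophil resistin *Retnlg* differed by 0.16 (adjusted p = 0.297 from limma), and neither passed. The genes that rose were *Trem1*, an activating receptor that monocytes carry too, 2.72-fold, and the chemokine receptor *Cxcr2*, 2.58-fold. *Cxcr2* read 6.18, 6.26 and 6.32 with rGDF11, against 4.77, 4.94 and 4.96 with RANKL alone. The falling ones were *Mmp8*, *Padi4* (−0.56) and *Il1f9* (−0.53).

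Of 11 markers of granulocyte-monocyte progenitors, a list that holds *Mpo*, *Elane* and *Prtn3*, *Cd34* and *Flt3* rose and 9 did not pass, with a median of 0.09. *Cd34*, a surface protein of progenitors that is not restricted to them, rose 4.20-fold, with 10.07, 10.12 and 10.04 with rGDF11, against 8.01, 7.98 and 8.02 with RANKL alone (limma, adjusted p = 2.98e-06). The progenitor genes *Kit* (−0.26, adjusted p = 0.135) and *Myb* (0.06, adjusted p = 0.652) did not pass. The part of any change in cell makeup in the rise of *Ngp*, *Lcn2* and *S100a8* was not tested.

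**Figure D4:**
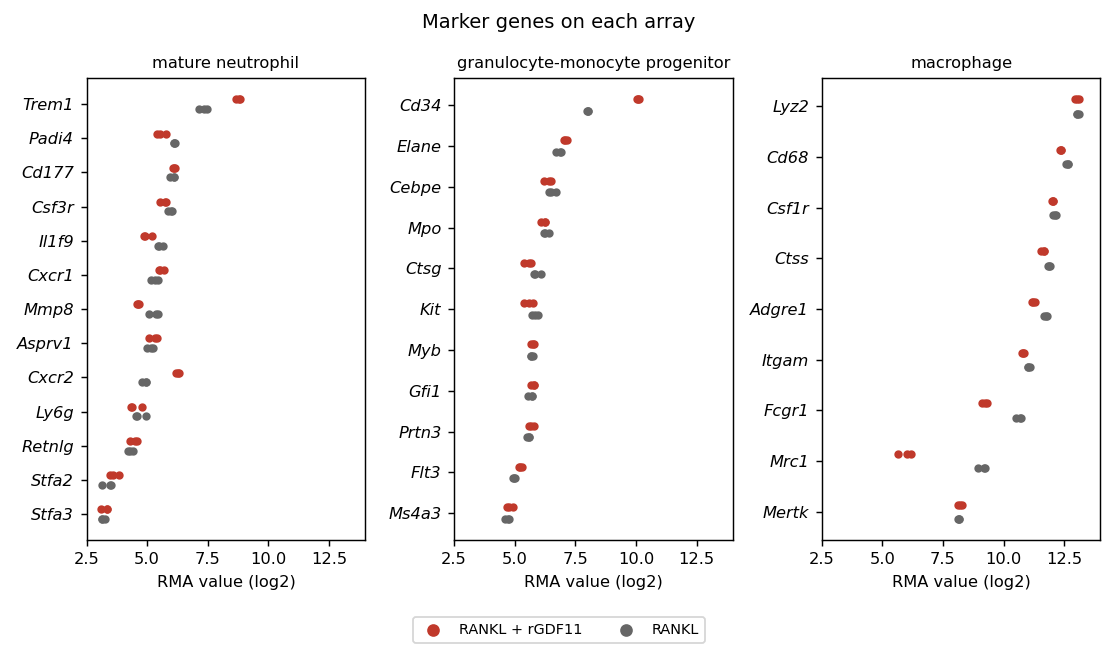
RMA values (log2, horizontal axes) of markers of mature neutrophils, of granulocyte-monocyte progenitors and of macrophages in BMMs given RANKL with rGDF11 (red, upper points of each gene) or RANKL alone (grey), 1 point per array; values of different genes are not comparable with each other. *Ly6g* overlaps between the groups at 4.32 to 4.97, *Cxcr2*, *Trem1* and *Cd34* are higher with rGDF11, and *Mrc1* and *Fcgr1* are lower.

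The genes with patterns most like those of the rising members were looked up. Likeness was the root mean square difference over the 6 arrays after each gene's own mean was subtracted. It was searched over 9917 other genes brighter than the median of the tested probe sets, which left out the members *Camp*, *Prtn3* and *S100a9*. The measure includes the size of a change, so a member with a small change could hardly lie near a rising one. Nearest to *Ngp* were the probe set annotated to the microRNA gene *Mir181b-1* (difference 0.07 on the log2 scale), *Ttc28* (0.11) and the fibronectin receptor chain *Itga5* (0.11). Nearest to *Lcn2* were *Fkbp5*, a chaperone gene induced by glucocorticoids (0.03), *Plxna4*, a semaphorin receptor (0.04), and *Lpcat1*, a phospholipid enzyme (0.04). Nearest to *S100a8* were *Cnn3*, an actin-binding calponin, *Errfi1*, a feedback inhibitor of EGF receptor signalling, and the noncoding RNA *Dancr* (0.07 each). All of these genes rose, and the likeness describes 6 values in 2 groups only.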

How the data were processed

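Total RNA of 6 BMM cultures, 3 with rGDF11 and 3 with vehicle, was measured on 1 array each. The deposited log2 values are RMA output of the authors. Expression Console is named in the study's methods, and version 3.0 of Transcriptome Analysis Console there and in the submitters' processing notes. Background, normalization and probe summary are thus fixed in the values, and RMA can compress the fold changes of dim probe sets. No source used here gives the annotation release, hybridisation batches or slides, and no background or batch alternative could be run.

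Of 35556 probe sets, 21789 carried 1 symbol, 1621 several and 12146 none by the platform annotation. Entrez identifiers placed 21698 of the first in the mouse table of GRCm38.p6 and changed 0 symbols. The 23410 with a symbol went into 1 two-sided fit by lmFit and eBayes (limma 3.58.1 under R 4.3.3), and a gene with several probe sets of its own was read from the brightest. The fit was tested on simulated data. The number of arrays limits the precision. Exact permutation tests used scipy 1.17.1.

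The members and the 7 gene lists and 11 marker lists were chosen with earlier results of these data known, so lists are described by counts and medians without a set test. Named are all members, up to 4 genes a list with the largest change among those that passed, defining markers, and the 3 nearest patterns of each rising member. Partners, regulators and receptors named beyond these were chosen for their known role after their values were seen. List genes that lacked an unshared probe set were left out. No promoter base after the start was printed.

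Alternatives were the rows tested, a filter on dim probe sets, 2 normalizations, and eBayes with trend, alone or together with its robust option. Further ones were the methods' t-test, the methods' threshold (1.5-fold with an unadjusted p-value below 0.01), the replicate number as a block, and each array left out. No member has a second probe set of its own, so that alternative gave no value.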

Additional observations from a re-analysis of the deposited data

How the results depend on the processing

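The count of 3 members higher and 0 lower was the same over all rows, after centring on array medians, with either other eBayes setting, by the methods' t-test, at the methods' threshold and with each array left out (lowest and highest 3 for higher, 0 and 0 for lower). A filter on dim probe sets, which keeps 6 members, and another quantile normalization each gave 4 higher, *Elane* being added (limma, adjusted p = 0.0199 and 0.0372). Of all genes, 1843 of the 9918 kept by the filter rose, and 1772 of 19938 rose after that normalization. With the replicate number as a block, 5 members were higher, *Elane* (limma, adjusted p = 0.0418) and *Camp* (limma, adjusted p = 0.0478) being added. With that block 1460 of 19938 genes rose. Same-numbered cultures deviated together at correlations of 0.06, 0.33 and −0.0008 across probe sets, so the numbers were not taken as pairs. No other member changed its side of the threshold, and no log2 fold change changed sign. In the fit used throughout, 1494 of all genes rose and 1820 fell. These counts were 424 and 610 at the methods' threshold, 398 and 575 by the methods' t-test at that threshold, and 993 to 1193 and 1268 to 1547 with 1 array left out, the fewest rises without the first rGDF11 replicate. The count of falls on the primary granule list, 1, was 0 with any 1 array left out. Over the alternatives *S100a9* had adjusted p of 0.160 to 0.806.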

Other observations

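Markers of other marrow cells were read on the same arrays. Among 7 measured eosinophil markers and 5 T cell markers, 0 rose and 0 fell by limma, at an adjusted or an unadjusted p under 0.05. Of 9 basophil and mast cell markers *Gata2* (log2 fold change 0.44) rose and *Hdc* (−0.26) fell, of 5 B cell markers *Cd79b* fell (−1.19), and of 5 erythroid markers *Alas2* rose (0.23). Of 7 stromal markers the collagen genes *Col1a1* (0.63) and *Col1a2* (0.65) and the receptor *Pdgfrb* (0.48) rose. Of 7 monocyte markers *Fn1* (2.06) and *F13a1* (0.66) rose, and *Vcan* (−1.18) and *Ccr2* (−0.44) fell. Of 9 macrophage markers 6 fell, *Mrc1* (−3.15) and *Fcgr1* (−1.41) most, and 0 rose. Of 10 osteoclast markers 6 rose, *Acp5* (1.87) and *Atp6v0d2* (1.58) most, and *Mmp9* fell. *Chil3*, which is made by neutrophil precursors and by macrophages, read 6.34 with rGDF11 and 5.77 with RANKL alone, a log2 fold change of 0.57 that did not pass (limma, adjusted p = 0.101).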
